A study of Mus musculus with 9 samples.

Results

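The translation initiation factors (eIFs) and elongation factors (eEFs) are the proteins that place ribosomes on messages and move them along. Their genes were taken from the deposited mouse table by symbol alone: every gene whose symbol starts with Eif or Eef followed by a digit, leaving out the 4 eIF2 kinases Eif2ak1 to Eif2ak4. The pattern found 66 genes, and 62 of the 17132 genes in the table were kept. No measured value entered this rule, but the gene family was chosen with earlier results of these data known.

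Initiation begins when eIF2 bound to GTP carries the initiator tRNA to the small ribosomal subunit, with eIF1, eIF1A and eIF3 already in place. The eIF4 factors recognise the cap of a message, unwind its leader and bring it to that subunit. After the start codon is found, eIF5 triggers GTP hydrolysis, eIF5B joins the large subunit, and eIF2B recharges eIF2. During elongation eEF1A delivers each aminoacyl-tRNA and eEF2 moves the ribosome on by a codon. The pancreatic acinar cell, which secretes digestive enzymes, is known for a very high rate of protein synthesis.

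Messenger RNA of whole pancreas from 9 wild-type C57BL/6 mice was sequenced, 3 mice per group. In QYD mice, caerulein, which mimics cholecystokinin and drives acinar cells beyond their normal stimulation, was injected into the peritoneum hourly 7 times. Lipopolysaccharide (LPS) went in with the last injection, and the herbal Qingyi Decoction was given at 0 and 8 h. Model mice received the same caerulein and LPS with saline in place of the decoction. Control mice received saline only, on both schedules. The pancreas was collected 24 h after injections began. The decoction is written QYD in the sample titles and QTD in the treatment labels, and the titles are followed here. Model versus Control asks what caerulein with LPS changed, QYD versus Model what the decoction changed in the injured pancreas, and QYD versus Control what remained different under the decoction. Model and Control, and QYD and Control, share the Control libraries, and Model and QYD both received caerulein and LPS.

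Libraries held 19112911 to 20212746 estimated counts. Their composition differed. Of counts, 10 acinar markers took 20.1% to 20.9% in QYD libraries, 21.9% to 24.5% in Model libraries and 26.9% to 33.5% in Control libraries. Each library's counts were scaled by TMM, which sets the typical gene equal between libraries. TMM factors were 1.36 to 1.79 in QYD libraries, 1.52 to 1.82 in Model libraries and 0.359 to 0.397 in Control libraries. The shares of these 10 markers differed far less between the groups than the factors did, but other abundant genes were not summed. What the factors reflect, composition included, was not tested. On library totals alone, without TMM, the median log2 fold change of all 12828 genes tested stood 2.15 higher in Model versus Control and 2.03 higher in QYD versus Control. Higher and lower below therefore mean relative to the typical gene, on the TMM scale, unless library totals are named. In whole tissue, fewer cells of a type and less RNA per cell cannot be told apart.

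Of the 62 genes, 61 passed the filter on low counts. Eef1a2, the elongation factor 1A of muscle and neurons, had 0 to 7 estimated counts per library and was not tested. Transcripts of 53 members reached 1 FPKM, which divides a count by gene length and library total, in all 9 libraries. Eef1a1 was the most abundant per length, with 3770, 3306 and 3095 FPKM in QYD mice, 3506, 3598 and 3065 FPKM in Model mice and 1025, 1142 and 1159 FPKM in Control mice. It made up 49.4% ± 0.7 of the members' summed FPKM in QYD mice, 48.1% ± 1.48 in Model mice and 46.7% ± 1.24 in Control mice (SD, n = 3 each). Eef2 came second, with a share of 10.5% ± 0.6 in QYD mice, 11.0% ± 0.333 in Model mice and 13.6% ± 1.86 in Control mice. The next 4 by mean FPKM were Eef1g, a structural subunit of the exchange factor for eEF1A, Eif5a, which relieves ribosomes stalled on proline runs, Eif1, which guards start codon choice, and Eif4ebp1, an inhibitor of the cap-binding protein. Only 2 members stayed under 1 FPKM in all libraries.

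Several members belong to the 5′ TOP messages, whose transcripts are known to begin with a C followed by a run of C and T (U in RNA) and to be controlled by mTORC1 through LARP1. Reported TOP messages among the members were taken to be Eef1a1, Eef1b2, Eef1d, Eef1g, Eef2, Eif3e, Eif3f, Eif3h and Eif4b, a list drawn up with earlier results of these data known. The start region of 4 of them is shown, with the annotated start at the centre of each window, beside Eef1b2 and the scaffold genes Eif4g1 and Eif4g3, which moved in opposite directions. Eif4g3 has 2 entries in the table, and the first is printed. Its window lies inside the gene, downstream of the gene's first base at 137991779. The window of Eif4g1 holds that gene's first base, 20672720, but is not centred on it. Each window holds the 30 bases before and the 30 after the RefSeq start (GRCm38.p6), 5′ to 3′ on the gene's strand, and capitals mark runs of 7 or more C or T.
Eef1a1 (chr9:78481695-78481754, minus strand): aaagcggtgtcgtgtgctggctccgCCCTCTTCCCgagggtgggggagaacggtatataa
Eef2 (chr10:81176601-81176660, plus strand): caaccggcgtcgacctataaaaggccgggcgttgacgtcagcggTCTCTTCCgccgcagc
Eif3f (chr7:108934385-108934444, plus strand): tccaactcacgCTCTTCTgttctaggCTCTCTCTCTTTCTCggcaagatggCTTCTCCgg
Eif4b (chr15:102073743-102073802, plus strand): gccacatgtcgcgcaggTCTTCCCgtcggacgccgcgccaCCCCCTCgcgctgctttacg
Eef1b2 (chr1:63176801-63176860, plus strand): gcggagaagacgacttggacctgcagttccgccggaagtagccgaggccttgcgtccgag
Eif4g1 (chr16:20672697-20672756, plus strand): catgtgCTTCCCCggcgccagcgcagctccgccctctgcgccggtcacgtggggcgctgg
Eif4g3 (chr4:137993425-137993484, plus strand): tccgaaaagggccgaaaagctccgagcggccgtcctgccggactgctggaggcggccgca
Of 47 members with a promoter in the RefSeq table, 17 (36.2%) held such a run in the window, against 33.8% of all 32851 promoters searched on the gene's strand. Among the reported TOP messages with a promoter there, 4 of 5 held one, and Eef1b2 did not. A run in the window is a description of these letters and neither a mapped transcript start nor a located TOP motif. In Eef1a1 the run lies before the letters tatataa, the form of a TATA box, and may not be part of the transcript. The longest run printed, of 15 letters, lies in Eif3f.

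Relative to the typical gene, more translation factor transcripts were lower than higher in Model versus Control pancreas: 28 of 61 tested members fell, 4 rose and 29 were not called (edgeR, adjusted p under 0.05), while on library totals 60 were higher and none lower. On library totals 94.0% of all genes tested were called higher and 0.943% lower. On the TMM scale 42.6% of all genes passed, 21.3% higher and 21.3% lower, against 52.5% of the members, 6.56% higher and 45.9% lower. These shares of all genes, on both scales, are the background for the Model versus Control counts by role below. The members' median log2 fold change was -0.33 on the TMM scale, against 0.04 for all genes, and 1.81 on library totals, against 2.19 for all genes. Of the 61 estimates on the TMM scale, 48 were negative and 13 positive. The distance of the members' median from that of all genes was -0.38 on both scales. The members together took 1.32% ± 0.119 of counts in Model libraries and 0.443% ± 0.0277 in Control libraries (SD, n = 3 each), so their summed share was higher in Model libraries although they stood below the typical gene. Model and Control values did not overlap for 37 members (60.7%), against 52.3% of all genes.

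**Figure D1:**
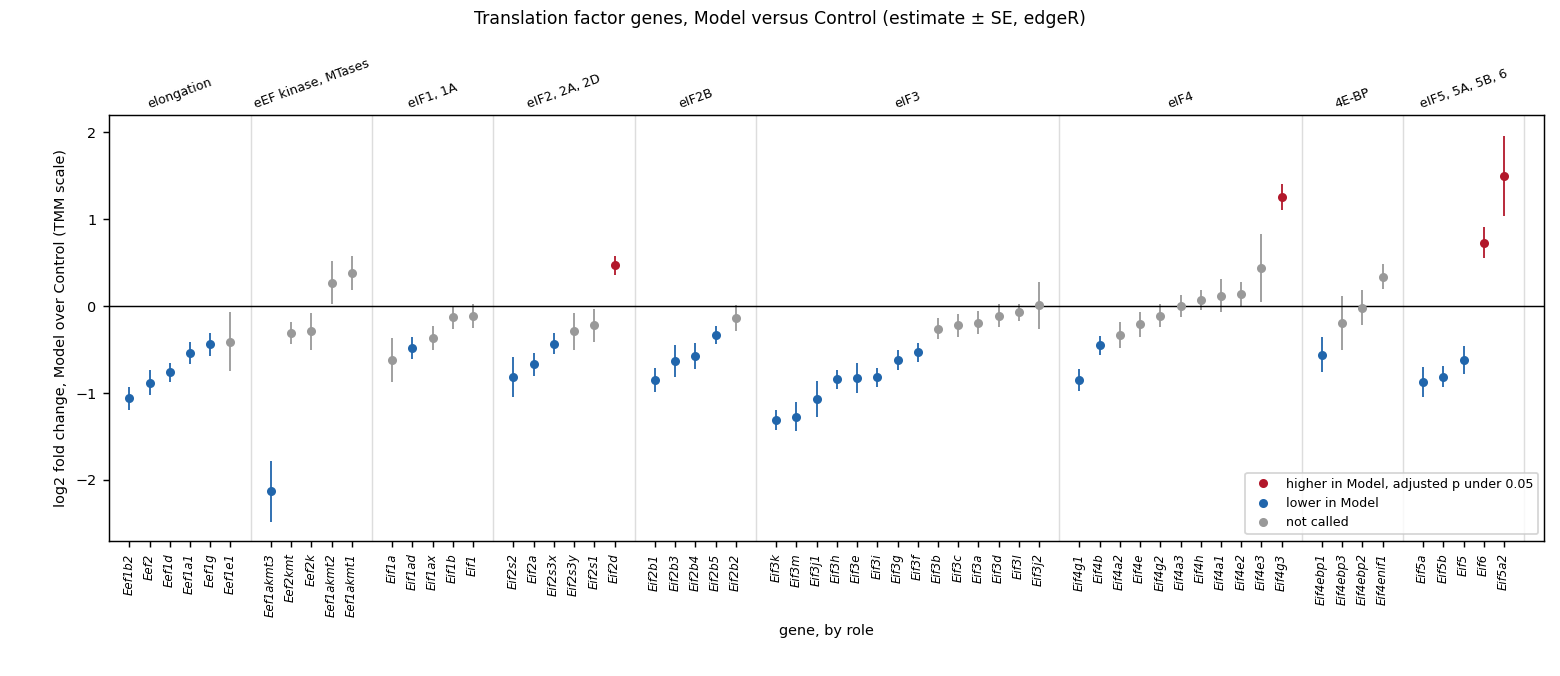
The log2 fold change of each of the 61 tested members in Model over Control on the TMM scale (points, with SE bars), grouped by role along the x axis; red marks higher, blue lower and grey not called. Most points lie below 0, with Eif4g3, Eif6, Eif2d and Eif5a2 called higher; on library totals every point except Eef1akmt3 lies above 0.

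**Figure D2:**
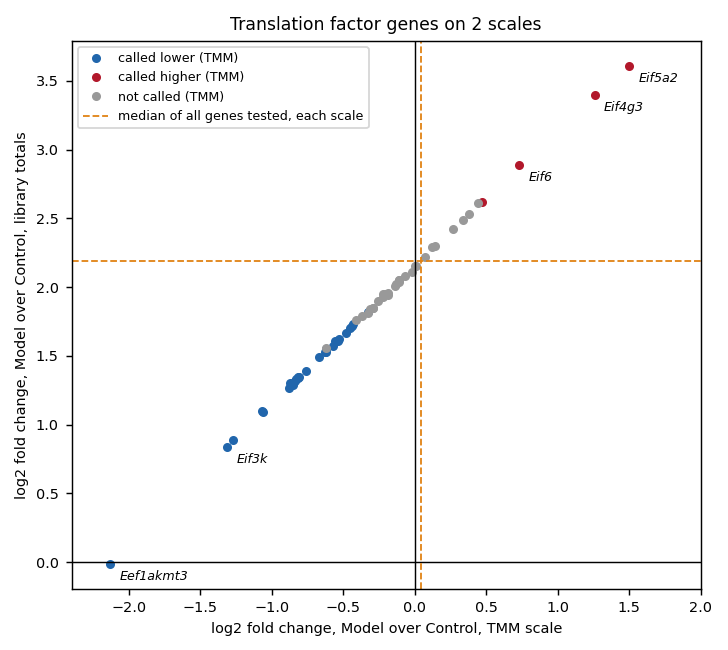
The Model over Control log2 fold change of each tested member on the TMM scale (x axis) and on library totals (y axis), coloured by the TMM call, with dashed lines at the median of all genes tested on each scale. The order of the members is nearly the same on both scales, while their position relative to 0 is not.

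Among the factors that bring the initiator tRNA, Model pancreas had less Eif2a, Eif2s2 and Eif2s3x and more Eif2d on the TMM scale, while on library totals all 6 tested genes were higher. Eif2s1, Eif2s2, Eif2s3x and Eif2s3y encode the alpha, beta and gamma subunits of eIF2, the gamma subunit from the X and the Y chromosome. Eif2s2 had 73.3, 63.4 and 62.7 TMM-scaled CPM in Model mice and 157, 81.1 and 113 TMM-scaled CPM in Control mice, a log2 fold change of -0.82 ± 0.23 (SE). The Control values spread widely but stayed above those of Model mice, and without the highest, Control 43, the adjusted p was 0.065. Eif2d, which can place tRNA on the ribosome without GTP, had 32.6, 34.6 and 33.9 TMM-scaled CPM in QYD mice, 32.8, 31.7 and 36 TMM-scaled CPM in Model mice and 21.5, 25.7 and 25 TMM-scaled CPM in Control mice. Both injured groups lay above all Control values, and the Model versus Control log2 fold change was 0.47 ± 0.11 (adjusted p = 0.0066). Eif2a, an alternative initiator tRNA factor distinct from the alpha subunit, had 20.7, 21.7 and 22.5 TMM-scaled CPM in Model mice and 38.7, 30.0 and 34.3 TMM-scaled CPM in Control mice, with no overlap and a log2 fold change of -0.67 ± 0.13 (adjusted p = 0.0019). The alpha subunit Eif2s1 did not pass, at -0.22 (adjusted p = 0.38). Eif2s3x passed at -0.43 and lost the call without Control 45, Model 57 or Model 59, with adjusted p of 0.051 to 0.068.

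Of the 5 subunits of eIF2B, the exchange factor that recharges eIF2 and is blocked when eIF2 alpha is phosphorylated, 4 fell in Model pancreas on the TMM scale and all 5 were higher on library totals. Eif2b1, the alpha subunit, had 14.7, 16.4 and 15.3 TMM-scaled CPM in QYD mice, 10.9, 13.1 and 15 TMM-scaled CPM in Model mice and 24.6, 24.8 and 21.1 TMM-scaled CPM in Control mice. Its Control values lay far above those of the other groups, and the log2 fold change in Model versus Control was -0.85 ± 0.14 (adjusted p = 6.7e-04). Eif2b3 and Eif2b4, the gamma and delta subunits, changed by -0.63 and -0.57 on the TMM log2 scale. The catalytic epsilon subunit Eif2b5 changed by -0.33 (adjusted p = 0.023) and missed the threshold without Control 44, Model 57 or Model 59 (0.051 to 0.093), and Eif2b3 missed it without Control 43 (0.07). The call of Eif2b5 was also lost with no filter on low counts (0.094) and with the compared groups alone in the fit (0.052). Eif2b2, the beta subunit, did not pass at -0.14.

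Of the 5 genes named for eIF1 or eIF1A, 1 was lower in Model pancreas and none higher on the TMM scale. All 5 were higher on library totals. Eif1 had 157, 144 and 140 TMM-scaled CPM in Model mice and 184, 146 and 147 TMM-scaled CPM in Control mice, with overlapping groups and a log2 fold change of -0.11 (adjusted p = 0.54). Eif1ad, which in human cells takes part in maturation of the small subunit, was the gene that passed, at -0.48 ± 0.13 (adjusted p = 0.014). It missed the threshold without Control 43 (0.051) or Model 57 (0.05). Eif1a, Eif1ax and Eif1b changed by -0.62, -0.37 and -0.13 and did not pass. Eif1ax, with an adjusted p of 0.051, passed without QYD 65 or QYD 68 and under 3 other settings (0.034 to 0.049), and Eif1a passed without Control 44 or Model 56 (0.021 and 0.038).

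The eIF3 complex, the large scaffold on the small subunit, was uneven: 8 of 14 genes fell on the TMM scale, none rose, and all 14 were higher on library totals. Log2 fold changes in Model versus Control ran from -1.31 for Eif3k to 0.01 for Eif3j2. Eif3k (chromosome 7, 28971372 to 28981890, GRCm38.p6) encodes a small peripheral subunit that contacts eIF3l. It had 39.1, 44.9 and 44.9 TMM-scaled CPM in QYD mice, 35, 39.4 and 41.1 TMM-scaled CPM in Model mice and 97.1, 95 and 94.3 TMM-scaled CPM in Control mice. All QYD and Model values lay far below those of Control mice, and Eif3k changed by -1.31 ± 0.12 in Model versus Control (adjusted p = 1.7e-05), the lowest of the members with at least 10 CPM. Its partner Eif3l had 71.3, 72.6 and 74.9 TMM-scaled CPM in Model mice and 75, 75.9 and 78.4 TMM-scaled CPM in Control mice, a log2 fold change of -0.07 ± 0.10 that did not pass (adjusted p = 0.63).

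Eif3m, a PCI-domain subunit, had 41.5, 49.2 and 54.8 TMM-scaled CPM in QYD mice, 34.9, 37.3 and 36.9 TMM-scaled CPM in Model mice and 106, 68.4 and 88.2 TMM-scaled CPM in Control mice. Model values were the lowest, QYD values lay above them and Control values were highest, with no overlap between any pair of groups, and the change in Model versus Control was -1.27 ± 0.17 (adjusted p = 2.0e-04). Eif3j1, a loosely bound subunit near the decoding site, had 31.5, 25.1 and 29.8 TMM-scaled CPM in Model mice and 83.2, 42.6 and 55.7 TMM-scaled CPM in Control mice, a log2 fold change of -1.07 ± 0.21 (adjusted p = 0.0018) with 1 Control mouse far above the others. Eif3e, Eif3h and Eif3i changed by -0.83, -0.84 and -0.82, and Eif3f and Eif3g by -0.53 and -0.62. These 5 passed the test in the same direction. Of Eif3h, the MPN-domain partner of eIF3f, the libraries held 91, 95.2 and 102 TMM-scaled CPM in QYD mice, 90.8, 93.2 and 86.8 TMM-scaled CPM in Model mice and 159, 170 and 155 TMM-scaled CPM in Control mice, and no QYD or Model value reached the Control values. The subunits Eif3a, Eif3b, Eif3c and Eif3d did not pass, at -0.19, -0.26, -0.22 and -0.11. Part of the sequence is shared with copies elsewhere in the genome: 60.2% of the 50-base stretches of Eif3j1 transcripts, 65.4% of Eif3m, 73.8% of Eif3h and 8.15% of Eif3j2 were unique to the gene, so their estimated counts depend on how RSEM divided shared reads, and Eif3k and Eif3l were fully unique.

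**Figure D3:**
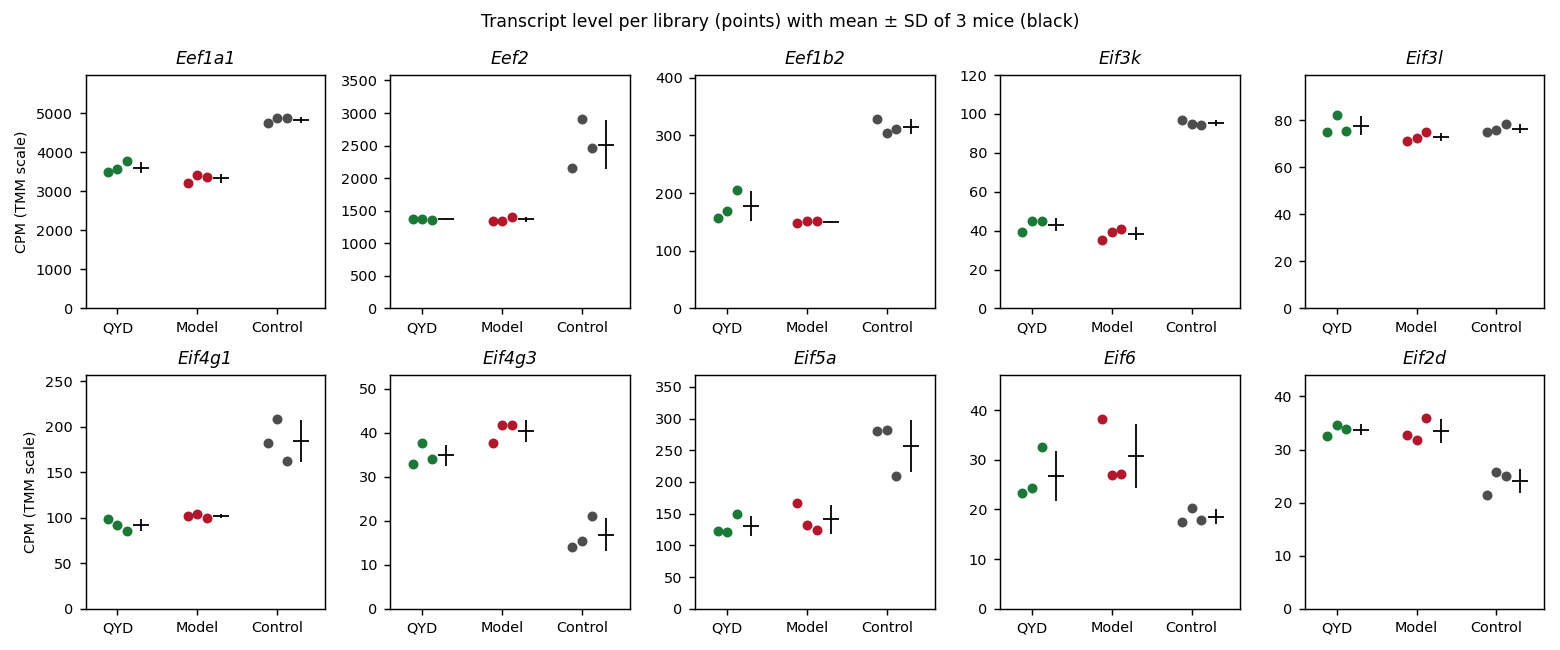
TMM-scaled CPM of 10 members in each library (points) with the mean and SD of 3 mice (black) for QYD, Model and Control pancreas; each y axis starts at 0. Eif3k, Eif4g1, Eef1b2 and Eef2 lie lower in QYD and Model than in Control mice without overlap, Eif4g3, Eif6 and Eif2d lie higher, and Eif3l is nearly level; on library totals all 10 are higher in QYD and Model mice.

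Among the eIF4 factors, the scaffold genes moved in opposite directions on the TMM scale: Eif4g1 fell and Eif4g3 rose, while on library totals both were higher. Eif4g1 (chromosome 16, 20672720 to 20692883) encodes the main scaffold that joins the cap-binding protein to the helicase and to eIF3. It had 98.4, 92.4 and 85.5 TMM-scaled CPM in QYD mice, 102, 104 and 99.2 TMM-scaled CPM in Model mice and 182, 208 and 162 TMM-scaled CPM in Control mice. Both injured groups lay below every Control value, and the log2 fold change in Model versus Control was -0.85 ± 0.13 (adjusted p = 3.8e-04). Eif4g3 (chromosome 4, 137991779 to 138207086), the related scaffold eIF4GII, had 33, 37.6 and 34 TMM-scaled CPM in QYD mice, 37.6, 41.8 and 41.8 TMM-scaled CPM in Model mice and 14, 15.5 and 21.1 TMM-scaled CPM in Control mice. Here every Control value lay below those of both injured groups, and Eif4g3 changed by 1.26 ± 0.15 (adjusted p = 1.2e-04), 2.39-fold. Of the 11 eIF4 genes tested, 1 was higher, 2 lower and 8 not called, against all 11 higher on library totals. The share called on the TMM scale, 27.3%, was below the 42.6% of all genes. Eif4b, a cofactor of the helicase, was the other gene that fell, at -0.45 ± 0.11 (adjusted p = 0.0061). The cap-binding protein Eif4e, the helicases Eif4a1 and Eif4a2 and the scaffold relative Eif4g2, which lacks the cap-binder site, did not pass, at -0.21, 0.12, -0.33 and -0.11. Eif4a2 passed without Control 44 (0.044) or Model 59 (0.048). Of the 50-base stretches of Eif4a1 34.7% were unique to the gene, against 90.8% of Eif4a2, so the counts of Eif4a1 depend on how shared reads were divided. The group's share of the members' summed FPKM was 7.37% ± 0.261 in Model mice and 5.43% ± 0.465 in Control mice, without overlap (SD, n = 3 each).

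Of the 4 genes for eIF4E inhibitors and binders, Eif4ebp1 passed and the other 3 did not; all 4 were higher on library totals. Eif4ebp1 encodes the repressor that mTORC1 phosphorylates to release eIF4E. It had 66.9, 64.7 and 93.4 TMM-scaled CPM in QYD mice, 113, 80.2 and 89.5 TMM-scaled CPM in Model mice and 149, 160 and 108 TMM-scaled CPM in Control mice. QYD values lay below all Control values, while the highest Model value exceeded the lowest Control value. The Model versus Control change was -0.56 ± 0.20 on the TMM log2 scale (adjusted p = 0.042). That call was lost in 6 of the 9 fits that left out a library (adjusted p of 0.053 to 0.14 in those) and with no filter on low counts (0.063). Eif4ebp2, Eif4ebp3 and the eIF4E transporter Eif4enif1 had log2 fold changes of -0.02, -0.19 and 0.34.

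The late factors changed in both directions on the TMM scale: Eif5, Eif5a and Eif5b fell and Eif6 and Eif5a2 rose in Model pancreas, and all 5 were higher on library totals. Eif5a had 123, 121 and 149 TMM-scaled CPM in QYD mice, 167, 132 and 124 TMM-scaled CPM in Model mice and 280, 282 and 210 TMM-scaled CPM in Control mice. No QYD or Model value reached a Control value, and the log2 fold change in Model versus Control was -0.87 ± 0.17 (adjusted p = 0.0018). Eif5b, the GTPase of subunit joining, had 49.8, 45.8 and 43.8 TMM-scaled CPM in QYD mice, 48.2, 44.7 and 45.8 TMM-scaled CPM in Model mice and 89.6, 72.1 and 80.7 TMM-scaled CPM in Control mice. The injured groups lay together, below Control, and the Model versus Control change was -0.81 ± 0.12 (adjusted p = 3.8e-04). Eif5 changed by -0.62 ± 0.16 (adjusted p = 0.01). Eif6, which keeps the large subunit from joining too early, had 23.4, 24.3 and 32.5 TMM-scaled CPM in QYD mice, 38.2, 26.9 and 27.1 TMM-scaled CPM in Model mice and 17.5, 20.2 and 17.9 TMM-scaled CPM in Control mice. All QYD and Model values exceeded the highest Control value, and Eif6 changed by 0.73 ± 0.18 (adjusted p = 0.0075).

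Eif5a2, the second eIF5A gene, was barely detected. Its estimated counts were 31, 32 and 35 in QYD mice, 33, 32 and 21 in Model mice and 3, 1 and 3 in Control mice. After TMM scaling the ratio of summed counts was 2.88 in Model over Control (exact 95% interval of the counting error, 1.34 to 7.38). The fitted call in Model versus Control (adjusted p = 0.021) missed the threshold without Control 44 (0.081) or Model 56 (0.052) and in DESeq2 (0.051).

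The elongation factors fell together on the TMM scale, 5 of 6 tested (83.3%, against 21.3% of all genes), and none rose. All 6 were higher on library totals, as were 94.0% of all genes. Eef1a1 (chromosome 9, 78478453 to 78481724) had 3494, 3562 and 3764 TMM-scaled CPM in QYD mice, 3206, 3424 and 3357 TMM-scaled CPM in Model mice and 4744, 4882 and 4864 TMM-scaled CPM in Control mice. The groups did not overlap, with Model lowest, and the log2 fold change in Model versus Control was -0.54 ± 0.13 (adjusted p = 0.0065). Eef2 (chromosome 10, 81176631 to 81182509), the translocase, had 1370, 1374 and 1357 TMM-scaled CPM in QYD mice, 1341, 1348 and 1411 TMM-scaled CPM in Model mice and 2160, 2913 and 2463 TMM-scaled CPM in Control mice. QYD and Model values were nearly the same and lay below all Control values, and Eef2 changed by -0.88 ± 0.14 (adjusted p = 6.8e-04). Eef1b2, a catalytic subunit that reloads eEF1A with GTP, had 157, 169 and 206 TMM-scaled CPM in QYD mice, 149, 152 and 151 TMM-scaled CPM in Model mice and 329, 304 and 312 TMM-scaled CPM in Control mice. It changed by -1.06 ± 0.13 (adjusted p = 1.2e-04), the lowest of the elongation factors. The exchange factor subunits Eef1d and Eef1g changed by -0.76 and -0.44, and Eef1g missed the threshold without Model 59 (0.064). Eef1e1, a scaffold protein of the tRNA synthetase complex, did not pass at -0.41. Of Eef1a1 and Eef1g, 47.6% and 35.7% of the 50-base stretches were unique to the gene, so both depend on the division of shared reads; of Eef2 and Eef1b2, 92.1% and 94.2% were.

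Of the 5 enzymes that modify elongation factors, 1 was called lower and none higher on the TMM scale, and 4 were higher on library totals. Eef2k, the kinase that phosphorylates and slows eEF2, had 12.3, 13.9 and 16.9 TMM-scaled CPM in Model mice and 18.4, 22.3 and 12.1 TMM-scaled CPM in Control mice, with overlapping groups and a TMM log2 fold change of -0.29 (adjusted p = 0.28). Without Control 45 it passed (0.047). Of the 4 lysine methyltransferases, Eef1akmt3 was called lower at -2.13 ± 0.35 (adjusted p = 7.3e-04) and was the member that showed no rise on library totals. Its estimated counts were 10, 14 and 14 in Model mice and 9, 15 and 16 in Control mice, close to equal before scaling. Eef1akmt1, Eef1akmt2 and Eef2kmt changed by 0.38, 0.27 and -0.31 and did not pass, and Eef2kmt passed without Control 43 (0.038).

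All 9 reported TOP messages were called lower in Model versus Control on the TMM scale, with a median log2 fold change of -0.76, and all 9 were higher on library totals, with a median of 1.39. Among the other 52 tested members, 19 were lower and 4 higher, with a TMM median of -0.27 and 1.88 on library totals. The background of genes called lower was 21.3%, given above. The list of 9 was drawn up with earlier results of these data known, so the contrast with the other 52 members is a description only. TOP messages outside the members were not listed. In QYD versus Control 8 of the 9 were called lower, with a TMM median of -0.62, and Eif3e was not (adjusted p = 0.075). No TOP message passed in QYD versus Model.

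Ratios of 2 genes within a library do not depend on the scaling of the library. Of 12 such ratios of FPKM computed, 11 paired paralogues or a factor and its regulator, and Eif3k/Eif3l was added after its values were seen. With 3 mice against 3, the smallest two-sided exact permutation p is 0.1, so none could reach 0.05. Adjustment over the 12 gave at least 0.2 in Model versus Control, 0.3 in QYD versus Model and 0.15 in QYD versus Control. The log2 ratio of Eif4g3 to Eif4g1 was -1.68, -1.40 and -1.44 in QYD mice, -1.54, -1.40 and -1.35 in Model mice and -3.83, -3.85 and -3.07 in Control mice. The groups given caerulein lay far above all Control libraries, by 2.15 in Model versus Control, 4.45-fold, and by 2.08 in QYD versus Control, 4.22-fold, each with an exact permutation p of 0.1. The ratio of Eif4g2 to Eif4g1 was higher by 0.74 and 0.97 in the same 2 comparisons, again without overlap.

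For Eif3k over Eif3l the log2 ratio was 0.35, 0.43 and 0.56 in QYD mice, 0.27, 0.40 and 0.43 in Model mice and 1.66, 1.61 and 1.56 in Control mice. QYD and Model libraries lay below Control libraries with no overlap, by -1.25 in Model versus Control and -1.17 in QYD versus Control. Eef2k over Eef2 gave -7.20, -7.76 and -7.26 in QYD mice, -7.20, -7.05 and -6.81 in Model mice and -7.71, -7.77 and -8.16 in Control mice. Model values were above all Control values by a mean of 0.86, while QYD values overlapped Control values. From estimated counts in place of FPKM that Model difference was 0.61. Eif4ebp1 over Eif4e was lower in QYD mice than in either other group without overlap, by -0.53 against Model and -0.88 against Control (exact permutation p = 0.1 each), although the highest QYD and the lowest Model value both round to 3.18. QYD and Model libraries also did not overlap for Eif5a2/Eif5a (0.41), Eif1b/Eif1 (0.35) and Eef2k/Eef2 (-0.39). For Eef2k/Eef2 the nearest values both round to -7.20. The adjusted exact permutation p against Model was 0.3 for each of these ratios, Eif4ebp1/Eif4e included. The ratio of Eif4a2 to Eif4a1, the helicase paralogues, was -0.46 in Model versus Control with overlapping groups, and rests on Eif4a1, of which 34.7% of stretches were unique. Eif3j2 over Eif3j1 and Eif5a2 over Eif5a stood 1.03 and 2.59 higher in Model than in Control mice, the first resting on a gene with few unique stretches and the second on few counts. For Eif1b/Eif1, Eif2s3y/Eif2s3x, Eif4e2/Eif4e and Eif4e3/Eif4e the Model and Control libraries overlapped.

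**Figure D4:**
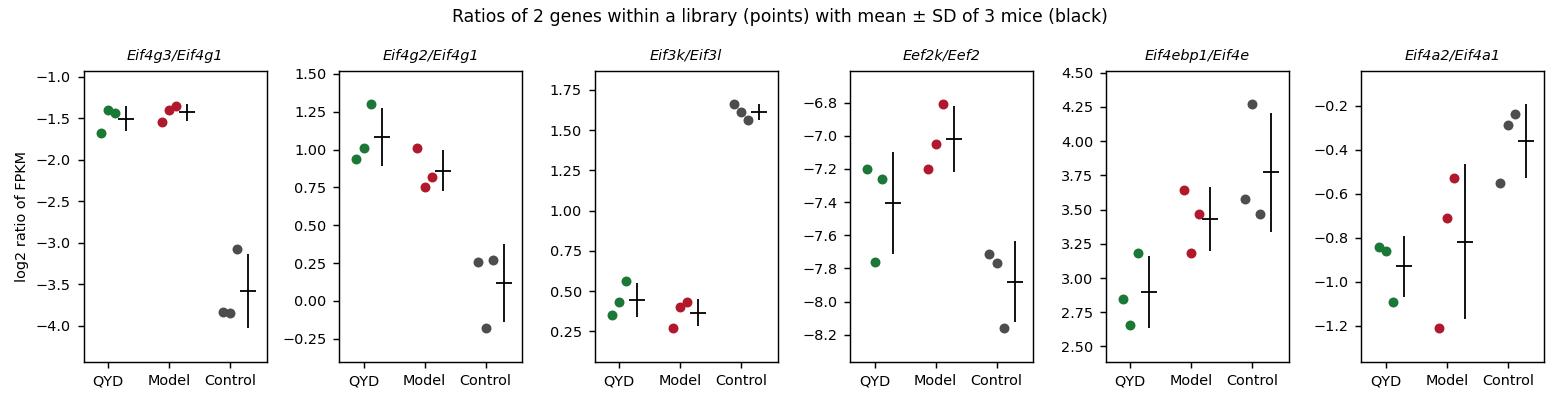
The log2 ratio of FPKM of 2 genes in each library (points) with the mean and SD of 3 mice (black) for QYD, Model and Control pancreas; each panel has its own y axis, which does not start at 0. Eif4g3/Eif4g1 and Eif4g2/Eif4g1 are higher and Eif3k/Eif3l is lower in QYD and Model than in Control mice without overlap, and Eif4ebp1/Eif4e is lowest in QYD mice.

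The decoction was followed by no called change. In QYD versus Model, edgeR called 0 of 61 members and 0.0% of all genes, and DESeq2, limma-voom and limma on FPKM called no member either. At an unadjusted p under 0.05 edgeR listed 4 members (6.56%), against 5.85% of all genes. DESeq2 listed 4 (6.56%, against 4.17% of all genes), limma-voom 5 (8.2%, against 7.98%), limma on log2(FPKM + 1) 3 of 60 (5%, against 6.8%) and on log2(FPKM + 0.1) 1 of 60 (1.67%, against 3.55%). This count turned on single libraries, and the share of all genes moved with them too. The count was 0 (against 2.71% of all genes) without QYD 66 and 7 without QYD 65 (11.5%, against 6.13%). Without QYD 68, Model 56 or Model 59 it was 2 (3.28%, against 4.28%, 4.28% and 4.35%). Without Control 43 it was 6 (9.84%, against 7.54%). It was also 7 with QYD and Model alone in the fit (11.5%, against 10.0%) and 1 on library totals (1.64%, against 3.94%). The members' median log2 fold change was 0.08 on the TMM scale, against 0.01 for all genes, and -0.05 on library totals, against -0.11. Values of 41 members were positive and 20 negative on the TMM scale, with a median SE of 0.13. QYD and Model values did not overlap for 19 members (31.1%), against 16.7% of all genes, on the TMM scale, and for 6 (9.84%), against 10.8%, on library totals.

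The 6 members with the smallest p were all numerically higher in QYD than in Model mice on the TMM scale, and each had an adjusted p of 0.83. Eif2a had 24.6, 30.6 and 27.9 TMM-scaled CPM in QYD mice and 20.7, 21.7 and 22.5 TMM-scaled CPM in Model mice, with no overlap and a log2 fold change of 0.36 ± 0.13 (unadjusted p = 0.017, edgeR). Eif3e, a PCI-domain subunit of eIF3, had 62.3, 79.4 and 84.4 TMM-scaled CPM in QYD mice and 58.4, 56.8 and 52.5 TMM-scaled CPM in Model mice, a difference of 0.43 ± 0.17. For Eif3m, given above, it was 0.42 ± 0.16. In these 3 genes the QYD mean stood between the Model mean and the higher Control mean, and QYD and Control values overlapped for Eif2a and Eif3e. Eif2s3x had 48.6, 56 and 52.2 TMM-scaled CPM in QYD mice and 47.5, 43.2 and 39.3 TMM-scaled CPM in Model mice, a difference of 0.27 ± 0.12. Eef1akmt1, which methylates eEF1A, had 3.56, 3.68 and 4.32 TMM-scaled CPM in QYD mice, 2.95, 2.95 and 3.21 TMM-scaled CPM in Model mice and 2.79, 2.16 and 2.03 TMM-scaled CPM in Control mice. Its QYD values were above all Model values and those above all Control values, with 0.34 ± 0.16 in QYD versus Model. Eif2b1 differed by 0.25 ± 0.13 with overlapping groups. Among the 4 genes for eIF4E inhibitors and binders, all estimates were negative in QYD versus Model, from -0.33 for Eif4ebp1 to -0.10 for Eif4ebp3, and none passed.

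QYD versus Control showed much the same picture as Model versus Control, with which it shares the Control libraries: 26 of 61 members were lower and 5 higher on the TMM scale, and 60 higher and none lower on library totals, where 93.8% of all genes were called higher and 0.99% lower. On the TMM scale 40.7% of all genes passed, 20.5% higher and 20.3% lower, against 50.8% of the members, 8.2% higher and 42.6% lower. The members' median log2 fold change was -0.31 on the TMM scale, against 0.06 for all genes, and 1.72 on library totals, against 2.09. Groups did not overlap for 31 members (50.8%), against 52.5% of all genes. The smallest p belonged to Eif3k, at -1.15 ± 0.12 (adjusted p = 4.5e-05), followed by Eif4g1 at -1.0, Eif4g3 at 1.05, Eif3h at -0.75 and Eif5b at -0.80. Eef1d, the sixth, had 38.3, 42.3 and 46.5 TMM-scaled CPM in QYD mice and 71.1, 75.2 and 68.1 TMM-scaled CPM in Control mice, without overlap, and changed by -0.75 ± 0.11 (adjusted p = 5.2e-04).

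By role, QYD versus Control called 5 elongation factors lower, 8 eIF3 genes, 3 eIF2B genes and 3 enzymes that modify elongation factors, and each of these was higher on library totals except Eef1akmt3. Eef2k, with an adjusted p of 0.041, and Eef2kmt (0.012) were called here at -0.60 and -0.51, and Eef1akmt1 was called higher at 0.73 ± 0.20 (adjusted p = 0.013). The Eef1akmt1 call rests on 16 to 20 estimated counts in Control libraries. None of the 6 eIF2, eIF2A and eIF2D genes was called lower, against 3 in Model versus Control, and the difference between those comparisons is QYD versus Model, in which no member passed. Without Control 44, Eif2a (adjusted p = 0.038) and Eif2s2 (0.031) were called lower in QYD versus Control too, as was Eif3e (0.017). Eif6, Eif2d and Eif5a2 were again called higher. The ratio of summed Eif5a2 counts was 3.52 in QYD over Control (exact 95% interval, 1.65 to 8.99). Of the 31 calls, 7 were lost in 3 or more of the 9 fits that left out a library, and no other call was lost in those fits. Eif3b was lost without any 1 library except Control 45 or Model 56 (adjusted p of 0.054 to 0.13). Eef1g was lost without Control 44, QYD 65 or QYD 66 (0.057 to 0.086), Eif2b4 without Control 43, Control 45 or QYD 68 (0.056 to 0.07), and Eif5 without Control 43, QYD 65 or QYD 66 (0.07 to 0.087). The other 3 were Eef1a1 (-0.42), Eef2k and Eif6 (0.53): Eef1a1 without Control 43, Control 44 or QYD 66, Eif6 without any 1 Control mouse or QYD 68, and Eef2k without Control 43, Control 44, Model 57 or any QYD mouse. Their adjusted p in those fits was 0.05 to 0.19. With no filter on low counts Eef1a1, Eef1g, Eef2k, Eif3b and Eif4b were not called (0.055 to 0.11), with the compared groups alone Eef1a1 (0.052) and Eif3b (0.06) were not, and in limma-voom Eef2k (0.061) and Eif6 (0.056) were not.

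Other genes of the pathway were described from lists drawn up with earlier results known. Directions here are on the TMM scale; on library totals every one of them was higher except 1 of the 14 mTORC1 genes. Among 11 genes of the eIF2 kinases, their phosphatase cofactors and targets, 4 were lower and 1 higher in Model versus Control. Atf4, the transcription factor translated when eIF2 is phosphorylated, averaged 69.1 ± 8.79 TMM-scaled CPM in Model mice and 139 ± 15.1 TMM-scaled CPM in Control mice (SD, n = 3 each), a log2 fold change of -1.01. Ppp1r15b, a cofactor of the eIF2 alpha phosphatase, Gcn1l1, the activator of Gcn2, and the endoplasmic reticulum kinase Eif2ak3 (Perk) changed by -1.04, -0.98 and -0.92. Among 14 genes of mTORC1 and MNK control, 4 were higher and 4 lower. The eIF4E kinases parted. Mknk1 averaged 31.3 ± 6.76 TMM-scaled CPM in Model mice and 113 ± 27.4 TMM-scaled CPM in Control mice, a change of -1.86. Mknk2 averaged 72.1 ± 6.07 TMM-scaled CPM in Model mice and 36.1 ± 7.16 TMM-scaled CPM in Control mice, a change of 1.00. Rps6kb1, the S6 kinase, and Rheb, the activator of mTORC1, changed by -1.50 and -1.01, and Larp1 by -0.64. Mlst8 and Sesn2 of the same list were higher by 1.24 and 0.92. Ddit4, an inhibitor of mTORC1, was higher by 1.16, and its QYD versus Model estimate of -0.70 did not pass (adjusted p = 0.83).

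Of 12 poly(A)-binding and accessory factors, 3 were higher and 4 lower in Model versus Control on the TMM scale, and all 12 were higher on library totals. The poly(A)-binding proteins parted: Pabpc1 averaged 271 ± 20.4 TMM-scaled CPM in Model mice and 166 ± 21.7 TMM-scaled CPM in Control mice, a log2 fold change of 0.71, and Pabpc4 averaged 130 ± 10.6 TMM-scaled CPM in Model mice and 307 ± 59.2 TMM-scaled CPM in Control mice, a change of -1.24. Paip2b, an inhibitor of poly(A)-binding protein, changed by -1.57, and Cyfip1, an eIF4E-binding partner of FMRP, by 1.25. Of 9 termination, rescue and recycling genes, 3 were lower: Gspt1 (eRF3) at -0.72, Hbs1l at -0.50 and its partner Pelo at -0.70. Of 8 genes for the hypusine of eIF5A and the diphthamide of eEF2, the hypusine hydroxylase Dohh was lower, at -0.65, and 7 did not pass. Of 9 mitochondrial translation factors, Mtif2 was higher at 0.49 and Mtrf1l lower at -0.83. The calls of Hbs1l, Pelo, Mtif2 and Mtrf1l were each lost in 2 or more of the fits that left out a library, with adjusted p of 0.051 to 0.16 there. None of these lists held a gene called in QYD versus Model. The background shares for Model versus Control are those given above.

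Markers of several cell types differed between the same groups. Summed TMM-scaled CPM of 10 acinar markers was 112320 to 151418 in QYD mice, 123855 to 161748 in Model mice and 678264 to 861567 in Control mice, with 10 of 10 called lower in Model versus Control and none at 0; on library totals 8 were lower and 2 higher. The 7 neutrophil markers summed to 140 to 260 in QYD mice, 107 to 174 in Model mice and 8.02 to 35.5 in Control mice, with 7 of 7 called higher in Model versus Control on both scales. Of 7 islet markers 6 were lower on the TMM scale, with sums of 115 to 208 in QYD mice, 167 to 357 in Model mice and 843 to 1261 in Control mice. On library totals none of the 7 was lower and 2 were higher, and the islet share of counts overlapped, at 0.0206% to 0.0295% in QYD libraries, 0.0253% to 0.0648% in Model libraries and 0.0307% to 0.05% in Control libraries. Of 6 macrophage markers 3 were higher and 1 lower on the TMM scale and 6 higher on library totals, with TMM-scaled sums of 178 to 195 in QYD mice, 158 to 225 in Model mice and 78.2 to 145 in Control mice. Of 6 duct markers 2 were higher and 1 lower on the TMM scale, with sums of 256 to 339 in QYD mice, 284 to 365 in Model mice and 194 to 258 in Control mice, and 5 were higher on library totals. The TMM-scaled sums of endothelial, fibroblast and stellate, adipocyte, B and plasma cell, and T cell markers overlapped between Model and Control mice. They ran from 162 to 266 in Model mice and 209 to 320 in Control mice for fibroblast and stellate markers, with 2 of 6 higher and 2 lower, and from 39.9 to 57.8 in Model mice and 34.4 to 54.1 in Control mice for endothelial markers, with 1 of 4 higher and 1 lower. Of 4 adipocyte markers 1 was lower, and no B, plasma or T cell marker was called. Skeletal muscle markers summed to under 2 in every library. The part of these cell types in the translation factor results was not tested.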

How the data were processed

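Polyadenylated RNA from Trizol extracts of pancreas was made into circularised libraries, per the labels' protocols. Per the submitters' processing notes, the tools were RSEM 1.2.12, Bowtie2 2.2.5 and HISAT2 2.0.4 on build GRCm38.p6; their roles, and whether strand was used in counting, are not given in the sources used, so overlapping genes on opposite strands cannot be told apart. The authors deposited, per the file headers, read counts, here taken as estimated counts of RSEM because they were not all whole (93.5% of values were exact whole numbers), and FPKM values, which are per gene length and per library total. Deposited TPM values and the authors' group means were not used, nor were 9 further columns of means whose names match no group here.

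Estimated counts were rounded and entered into edgeR 4.0.16 (R 4.3.3, quasi-likelihood test, TMM, group as the only term, all 9 libraries, 6 residual degrees of freedom). The default filter kept 12828 genes and removed 4304. P-values were adjusted over all genes tested (Benjamini-Hochberg, threshold 0.05). Alternatives were library totals, RLE, TMM without the 50 most abundant genes, other filters, the compared groups alone, each library left out, DESeq2 1.42.0, limma 3.58.1 with voom, and, for genes at 1 FPKM or more in 3 libraries, limma on log2 FPKM with a pseudocount of 1 or 0.1. A fold change on these log scales understates that of low genes. The common biological coefficient of variation was 0.175. Libraries of 1 group differed beyond sampling noise in every pair (chi-square per gene of 16.3 to 55.4). Samples are separate mice by their titles. On simulated counts for Model versus Control (12708 genes) the test recovered 32.8% of changes of 1.5-fold, 94% of 2-fold and 100% of 4-fold. For QYD versus Model (12714 genes) it recovered 44.8%, 98.5% and 100%. Only 67, 67 and 66 genes were changed at these sizes in each simulation. In the data 42.6% of genes were called in Model versus Control, so recovery there may differ from these rates.

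Members and gene lists were chosen with earlier results of these data known. Values in every library were given for members called in Model versus Control without overlap and with 10 CPM or more as the mean of the higher group (up to 8 in each direction), the 6 with the smallest p in each QYD comparison, the 6 with the highest FPKM, and the ratios; a few other members were added after their values were seen. Gene identifiers of 17031 of 17132 genes matched the RefSeq table of GRCm38.p6, which gave coordinates, names and promoter sequence, and uniqueness of 50-base stretches was counted over the reference transcripts.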

Additional observations from a re-analysis of the deposited data

How the results depend on the processing

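The scaling decided the direction. In Model versus Control, 32 members were called on the TMM scale, 28 lower and 4 higher. On library totals 60 were called, 0 lower and 60 higher, and limma on log2(FPKM + 1) and on log2(FPKM + 0.1) called 59, 0 lower and 59 higher. The members' median log2 fold change was then 1.81, 1.58 and 1.79. In QYD versus Control the same 3 settings called 60, 59 and 59 members, all higher and 0 lower, with medians of 1.72, 1.55 and 1.69. In QYD versus Model their medians were -0.05 each, against 0.08 on the TMM scale, and no member was called. These settings divide by library totals in place of the typical gene, by their construction. Scaling by RLE, TMM that left out the 50 most abundant genes, limma-voom, DESeq2, filters on low counts, and fits of the compared groups alone changed the counts of calls by less than 1.5 times, and the direction of no called member. The Model versus Control median was -0.27 with no filter on low counts and -0.41 with at least 5 CPM in 3 libraries. Leaving out each library gave 28 to 33 called members in Model versus Control and 26 to 31 in QYD versus Control, 0 in QYD versus Model, and a Model versus Control median of -0.40 to -0.33, lowest without Control 44. No paired analysis was possible because the groups share no replicate numbers.

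Log2 fold changes in Model versus Control that changed sign are given on library totals, on log2(FPKM + 1) and on log2(FPKM + 0.1), in that order. They were 1.61, 1.61 and 1.61 for Eef1a1, 1.09, 1.07 and 1.08 for Eef1b2, 1.39, 1.37 and 1.39 for Eef1d, 1.76, 1.43 and 1.81 for Eef1e1, 1.72, 1.69 and 1.70 for Eef1g, 1.27, 1.28 and 1.28 for Eef2, 1.85, 1.56 and 2.06 for Eef2k and 1.84, 1.53 and 1.81 for Eef2kmt. The next values were 2.05, 2.02 and 2.04 for Eif1, 1.56, 1.34 and 1.54 for Eif1a, 1.67, 1.34 and 1.63 for Eif1ad, 1.79, 1.69 and 1.76 for Eif1ax, 2.02, 1.75 and 1.99 for Eif1b, 1.49, 1.35 and 1.47 for Eif2a, 1.29, 1.09 and 1.22 for Eif2b1 and 2.01, 1.88 and 2.01 for Eif2b2. Further values were 1.53, 1.13 and 1.45 for Eif2b3, 1.57, 1.40 and 1.58 for Eif2b4, 1.82, 1.64 and 1.79 for Eif2b5, 1.95, 1.72 and 1.93 for Eif2s1, 1.35, 1.33 and 1.38 for Eif2s2, 1.73, 1.57 and 1.70 for Eif2s3x, 1.85, 1.63 and 1.87 for Eif2s3y and 1.96, 1.83 and 1.95 for Eif3a. Then followed 1.90, 1.79 and 1.88 for Eif3b, 1.93, 1.86 and 1.92 for Eif3c, 2.04, 1.96 and 2.05 for Eif3d, 1.33, 1.30 and 1.33 for Eif3e, 1.62, 1.59 and 1.62 for Eif3f, 1.53, 1.48 and 1.52 for Eif3g, 1.32, 1.29 and 1.31 for Eif3h and 1.34, 1.30 and 1.33 for Eif3i. They were 1.10, 1.05 and 1.12 for Eif3j1, 0.84, 0.82 and 0.83 for Eif3k, 2.08, 2.02 and 2.07 for Eif3l, 0.89, 0.88 and 0.90 for Eif3m, 1.81, 1.79 and 1.83 for Eif4a2, 1.70, 1.64 and 1.69 for Eif4b, 1.95, 1.73 and 1.92 for Eif4e and 1.61, 1.58 and 1.59 for Eif4ebp1. The next values were 2.11, 1.97 and 2.16 for Eif4ebp2, 1.94, 1.08 and 1.83 for Eif4ebp3, 1.30, 1.23 and 1.29 for Eif4g1, 2.05, 1.96 and 2.03 for Eif4g2, 1.55, 1.48 and 1.54 for Eif5, 1.30, 1.25 and 1.26 for Eif5a, 1.35, 1.16 and 1.33 for Eif5b and 1.15, 1.11 and 1.13 for Atf4. Further values were 1.12, 1.00 and 1.13 for Ppp1r15b, 1.17, 0.93 and 1.15 for Gcn1l1, 1.24, 1.13 and 1.22 for Eif2ak3, 0.28, 0.28 and 0.30 for Mknk1, 0.66, 0.70 and 0.83 for Rps6kb1, 1.15, 1.10 and 1.15 for Rheb, 0.91, 0.89 and 0.90 for Pabpc4 and 0.57, 0.51 and 0.56 for Paip2b. Then followed 1.44, 1.22 and 1.41 for Gspt1, 1.64, 1.55 and 1.64 for Hbs1l, 1.46, 1.04 and 1.42 for Pelo and 1.5, 1.40 and 1.5 for Dohh. Mtrf1l stood at 1.30 on library totals and was not tested on the FPKM scales. Eef1akmt3 stood at 0.00 and 0.02 on the FPKM scales, and at -0.01 on library totals, with no call. In QYD versus Control the values in the same order were 0.87, 0.87 and 0.88 for Eif3k, 1.05, 0.97 and 1.02 for Eif4g1, 1.28, 1.27 and 1.28 for Eif3h, 1.25, 1.06 and 1.21 for Eif5b, 1.27, 1.26 and 1.29 for Eef1d, 1.61, 1.61 and 1.61 for Eef1a1, 1.15, 1.16 and 1.16 for Eef2, 1.45, 1.14 and 1.56 for Eef2k, 1.52, 1.24 and 1.5 for Eef2kmt and 1.62, 1.60 and 1.63 for Eif3e. Ratios within a library keep their value under any scaling.

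Depth limits Eif5a2, Eef1akmt1, Eef1akmt2, Eef1akmt3, Eif4e3, Eif4ebp3 and Eif3j2, which had few counts in Control libraries, and Eef1a2 could not be tested. Transcripts cannot be read as protein or as a rate of translation. Genes with shared sequence depend on the division of reads by the authors' tools.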
